A study of Oryza sativa Indica Group and Oryza sativa Japonica Group with 8 samples.

Results

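The 200 Affymetrix probe sets described here had high signal on all 4 arrays from japonica rice lines and low signal on all 4 arrays from indica rice lines. They were chosen from the 57258 deposited probe sets. After the 8 arrays were brought to the same distribution (quantile normalization), log2(intensity + 16) was taken, the 64 control probe sets were left out, and the upper 60% of the rest by mean were kept, which left 34317 probe sets. For each of these, a gap was defined as the lowest of the 4 japonica values minus the highest of the 4 indica values, and the 200 probe sets with the largest gaps are the members. The difference between the backgrounds therefore chose the members, and every japonica-to-indica difference of a member below is a description with no test.

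The study measured total RNA from young rice panicles, collected from microspore mother cells up to meiosis, with 1 array for each of 4 lines at each of 2 temperatures. In the indica background these lines were AnN, a wild type, and AnS-1, a thermosensitive genic male sterile mutant. In the japonica background they were ZH11, a wild type, and Os02g12290iL1, an RNAi line directed against Os02g12290. The study's design names AnS-1 and Os02g12290iL1 as tms5 plants and asks whether the ribonuclease RNase ZS1 takes part in mRNA metabolism. All plants grew in cabinets at a day-average temperature of 23 °C, here low temperature (permissive), or 28 °C, here high temperature (restrictive). Each line and temperature had a single array, so no condition had a replicate of its own. The RNAi line is named as a single line, and the labels do not say how many plants made up a panicle sample. The probe set of Os02g12290 itself was not analysed here.

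Indica and japonica are the main groups of cultivated Asian rice, and their genomes differ by single-base changes, insertions, deletions and genes present in only some cultivars. An array probe set is a group of short oligonucleotides that match stretches of a single transcript, and on the rice array most of these were designed on japonica sequence. Signal can be low because little of the transcript is present, or because the transcript differs from the probes under a stretch they match. From a single probe set these cannot be told apart, and in bulk panicle tissue fewer cells of a type and less RNA per cell cannot be told apart either. Several probe sets of the same gene, which match different stretches, give further measurements of the transcript. Probe sets whose names end in _s_at or _x_at may also bind related transcripts.

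The median deposited intensity ranged from 59.2 to 141 over the 8 arrays. The indica arrays at low temperature and those at high temperature lay on different deposited scales, so that temperature and array set cannot be told apart in indica. Of 15 markers of meiosis and germ cells, those matched led to 9 probe sets, with DMC1A and DMC1B sharing a probe set. All 9 lay above the 90th percentile of the reporter probe sets, which match foreign genes, on all 8 arrays. Of 7 markers of floral organs, 6 were matched and all 6 did so, as did 4 of the 6 matched markers of anther wall and tapetum. The summed intensity of the meiosis and germ cell markers was 6239 to 7648 on the japonica arrays and 2823 to 6202 on the indica arrays, and that of the floral organ markers 21186 to 22260 and 17344 to 20847. For anther wall and tapetum these sums were 10951 to 23660 and 4150 to 16609, and so overlapped. The 3 matched leaf markers also lay above the reporter level on all 8 arrays, with sums of 2486 to 4955 in japonica and 5434 to 9043 in indica. The matched endosperm markers led to 3 probe sets, with GLUA2 and GT1 sharing a probe set. These summed to 239 to 276 in japonica and 193 to 228 in indica. Of the 3, 0 lay above the reporter level on all 8 arrays and 2 on no array. Markers of late pollen and root were not matched. The part of these tissues and stages in the members' difference was not tested.

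Over the 200 members, single-array intensities ran from 226 to 10364 on the japonica arrays and from 1.51 to 384 on the indica arrays. The median of the members' mean intensities was 989 in japonica and 38.1 in indica, beside 285 and 291 over all 34317 probe sets. Array by array, the members' median intensity was 35.8, 35.4, 37.3 and 36.4 on the AnN low, AnS-1 low, AnN high and AnS-1 high arrays. It was 1000.3, 935.5, 1068 and 1066 on the ZH11 low, Os02g12290iL1 low, ZH11 high and Os02g12290iL1 high arrays, each far above every indica array. The gap ran from 2.66 to 6.25 on the log2 scale with a median of 3.59, and the median over all probe sets was -0.50. It was at least 5 for 16 members, at least 4 for 69 and at least 3 for 157. Over all probe sets, the japonica values lay wholly above the indica values for 5935 (17.3%) and wholly below them for 6892 (20.1%), and the gap was at least 1 for 1087 (3.17%). Complete separation was thus common between these backgrounds in both directions, and the members are its far end towards japonica.

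The reporter probe sets gave a level for signal without a matching rice transcript. Their 90th percentile lay between 82.7 and 119 on the 8 arrays. All 200 members were above it on all 4 japonica arrays, compared with 76.6% of all probe sets, and 161 members (80.5%) were at or under it on all 4 indica arrays, compared with 5.49% of all probe sets. A stricter level, the reporters' median, was met on all 4 indica arrays by 52 members (26%) and by 0.23% of all probe sets. The rule itself favours these patterns. Signal in japonica alone thus described 161 members at this level, and the other 39 kept some signal above it on an indica array. Among the japonica arrays, the members' range over the 4 arrays, which a rule built on the lowest value tends to keep small, had a median of 0.28 on the log2 scale, beside 0.27 over all probe sets, and was at most 0.5 for 161 members and over 1 for 7.

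Intensities of a member are given below in the order AnN low, AnS-1 low, AnN high and AnS-1 high for indica, and ZH11 low, Os02g12290iL1 low, ZH11 high and Os02g12290iL1 high for japonica. Where a member did not exceed the reporters' 90th percentile on any indica array, a fold is a lower bound, the lowest japonica intensity over 119, the highest of those percentiles on an indica array. The largest gap, named because it ranks first and after its values were seen, belonged to Os.18487.1.S1_at, which has no gene in the probe table. Its intensities were 42.3, 47.2, 28.7 and 32.2 in indica and 5026, 4788, 5045 and 5322 in japonica, at least 40.3-fold higher in japonica. It was high and nearly level on all 4 japonica arrays.

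Most members with a gene carry only a locus identifier in the tables used, and no role is given for those. The largest gap among members with a gene, 5.82, was that of LOC4344941. It read 28.6, 36.1, 36.0 and 44.6 in indica and 3411, 3667, 3601 and 3416 in japonica, at least 28.7-fold higher. LOC4347323 (gap 5.78) read 19.4, 27.0, 19.1 and 16.9 in indica against 2615, 2349.9, 2538 and 2569 in japonica, at least 19.8-fold higher. Neither gene's values differed much with line or temperature inside a background. LOC4350847 (gap 5.69) read 18.8, 20.2, 6.72 and 7.70 in indica against 2351, 2199.9, 1853 and 2107 in japonica, with its lowest indica values at high temperature. For LOC4350347 (gap 4.85) the indica intensities of Os.50578.2.S1_at were 8.56, 11.1, 9.07 and 8.32, all far below the reporter level, and the japonica ones 833, 764, 942 and 1012. The gene's other member, Os.50578.2.S1_x_at, read 23.1, 36.9, 100 and 113 in indica and 946, 835, 1065.5 and 1155 in japonica. In indica it exceeded the reporters' 90th percentile on both arrays at high temperature. The other members among the 12 genes with the largest gaps, LOC4328397, LOC4350802, LOC9266559, LOC4328398, LOC4347150, LOC4339507, LOC4333139 and LOC4351341, had gaps between 4.66 and 5.19, and several of them return below.

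At the limit of the selection, the last 3 members were Os.54084.1.S1_at, Os.10981.1.S1_at and Os.28858.1.S1_at (LOC4325718), with gaps of 2.6613, 2.6602 and 2.6567. The first 3 probe sets outside were Os.7782.1.S1_at, Os.26388.3.S1_x_at and Os.21255.3.S1_at (LOC4346276), with gaps of 2.6505, 2.6498 and 2.6414. Values on either side of the limit were thus nearly equal. Os.10981.1.S1_at read 151, 151, 119.5 and 104 in indica and 1069.8, 1041, 1071 and 1081 in japonica, so a member near the limit could keep indica signal above the reporter level.

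Features that the selection did not use directly were set beside those of all probe sets, without matching for brightness, which the selection did use. A single gene was named by the probe table for 88 members (44%), compared with 53.8% of all 34317 probe sets, and these 88 probe sets stood for 82 genes. The other 112 members had no single gene there. Probe sets for predicted transcripts (names beginning OsAffx) made up 11.5% of the members and 31.2% of all probe sets, while names ending in _x_at made up 15.5% and 14.7% and those ending in _s_at 5% and 6.24%. An informative gene name was found for 3 of the 88 (3.41%), compared with 14.6% of the probe sets with a single gene. Of the 82 genes, 77 (93.9%) were annotated as protein-coding, compared with 99.2% of tested genes. Lists of named genes for 15 themes, among them disease resistance, kinases, cytochrome P450, transcription factors, heat shock, transporters, meiosis and tapetum, held between 0 and 173 tested probe sets each and 0 members, which with so few named members says little about their functions.

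The 3 members with an informative gene name were AldC-1, GRXS1 and OsPRDA1. AldC-1 (LOC4325027) is a fructose-bisphosphate aldolase, an enzyme of glycolysis. Its member, Os.8999.2.S1_at, read 28.1, 31.1, 25.2 and 23.0 in indica and 988, 1106, 824 and 834 in japonica, at least 6.94-fold higher. A further probe set of the same gene, Os.8999.1.S1_at, read 3293, 3306, 2924 and 3182 in indica and 4406, 4640.5, 4579 and 4504 in japonica, a difference of 0.51 on the log2 scale. The other, Os.8999.3.S1_x_at, differed by 0.71. This gene was therefore bright on every indica array by these probe sets, while its member was below the reporter level there.

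GRXS1 (LOC4327130) is a glutaredoxin, a small redox enzyme that uses glutathione. Its member, Os.9548.1.S1_at, read 109.8, 190.4, 176 and 174 in indica and 2099.8, 2149.6, 2086 and 2049.9 in japonica, so that the lowest japonica value was 10.8 times the highest indica value. This member kept indica signal above the reporter level on 3 of 4 arrays. Another probe set with the same cluster number in its name, Os.9548.2.S1_s_at, has no single gene in the probe table. It read 855, 1058, 854 and 843 in indica and 1385.5, 1434, 1475.5 and 1496 in japonica, a difference of 0.68 without overlap. Whether it measures GRXS1 was not tested. OsPRDA1 (LOC4350378) is the rice gene named after Arabidopsis PRDA1, which takes part in plastid transcription. Its member, Os.37727.1.S1_at, read 64.7, 60.9, 25.9 and 33.3 in indica and 837, 937, 516 and 679 in japonica, and was lower at high temperature in both backgrounds. A further probe set, Os.8213.1.S1_at, read 196, 342, 201 and 212 in indica and 333, 304, 376 and 358 in japonica, and there the backgrounds overlapped.

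Probe sets of the same gene were then compared. Of the 82 genes, 38 had a single probe set, so that low transcript and probe mismatch cannot be told apart for them, and 44 had several. Beside the members there were 73 further probe sets of 42 genes, of which 17 fell below the filter on low values and 56, of 34 genes, were measured above it. The filter keeps probe sets with signal in either background and so favours these. In 5 genes several probe sets were members, and members are not counted as further probe sets. The rule thus lowers the share of further probe sets that were higher in japonica. The japonica mean was at least 1 above the indica mean on the log2 scale for 17 of the 56 (30.4%), where the share over the other tested probe sets with a single gene was 7.72%. The means lay within 0.5 of each other for 15 (26.8%), where that share was 62.9%, and the indica mean was at least 1 higher for 5 (8.93%), where it was 6.73%. The remaining 19 lay between these limits, and the median difference was 0.56, beside -0.02 over the other probe sets. Some further probe sets share part of their name with the member, and several belong to the same gene, so these shares are descriptions.

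In 10 genes every further tested probe set was also at least 1 higher in japonica. For LOC4350020 the member Os.53740.1.S1_s_at read 40.8, 38.3, 13.2 and 20.9 in indica and 1071, 959.8, 1207 and 1253 in japonica. Its further probe set Os.27601.1.A1_at, whose name shows another transcript cluster, read 80.1, 102, 37.6 and 52.0 in indica and 685, 694, 728 and 838 in japonica, a difference of 3.22. Both of these probe sets thus separated the backgrounds without overlap. Another of the gene's probe sets, Os.53740.1.S1_at, fell below the filter on low values. It read 66.1, 74.7, 29.1 and 28.8 in indica and 90.6, 99.0, 131 and 116 in japonica, a difference of 0.996. For LOC4350213 the member Os.11271.2.S1_at differed by 4.28 and the further probe set Os.11271.1.S1_a_at by 2.39. LOC4337241 showed 3.77 for the member Os.8192.1.S1_at and 1.74 for Os.57383.1.S1_at, of another cluster. LOC4341379 showed 3.48 for its member Os.19296.2.S1_at and 1.63 for Os.19296.1.S1_at. In each of these 4 genes the further difference was smaller than the member's, which the choice of the largest gaps as members nearly fixes.

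The other 4 genes named from this class had a member and a further probe set that share most of their name, and so may share probes. LOC4328950 showed a difference of 4.23 for the member Os.18676.1.S1_at and 3.33 for Os.18676.1.S1_x_at. LOC4345148 showed 4.58 for the member Os.49534.1.S1_x_at and 2.88 for Os.49534.1.S1_at. For LOC4339029 and LOC9269842 the further differences were 2.03 and 2.01. In addition, both genes LOC4349255 and LOC4349257 had only members as their probe sets. LOC4349255 read 3511, 3469.5, 4439 and 4401 in japonica by Os.7121.1.S1_at and 134, 80.2, 128 and 96.4 in indica, with AnN above AnS-1 at each temperature.

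In 12 genes a further tested probe set was alike in both backgrounds, with means within 0.5, and 9 such probe sets of 7 genes lay above the reporter level on all 8 arrays. Among these 9, Os.52305.2.S1_x_at of LOC4344943 was only just above it, with a lowest value of 120. LOC4348229 was a clear case. Its member Os.18580.2.S1_at read 31.3, 42.5, 17.4 and 22.8 in indica and 1069.5, 1078, 1248 and 1282 in japonica. Its further probe set Os.18580.1.S1_at read 1926, 1943, 1366 and 1308 in indica and 1394, 1386, 1552 and 1437 in japonica, a difference of -0.16, and the backgrounds overlapped. For LOC4333416 the member Os.1151.2.S2_a_at read 147, 145, 78.6 and 79.8 in indica and 2500.1, 2284, 2255 and 2312 in japonica. Of its 6 further tested probe sets, 4 were alike: Os.1151.1.S1_at, for example, read 6071, 6310.5, 5625 and 5874 in indica and 5244, 5281, 4695 and 5130.2 in japonica. This gene was thus bright on all 8 arrays by several probe sets and low in indica by the member.

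LOC4325346 had the alike probe set Os.3777.1.S1_s_at, which read 962, 1051, 474 and 477 in indica and 901, 914, 757 and 818 in japonica, while its member Os.3777.1.S1_at read 133, 124, 43.4 and 45.9 and 2394, 2265, 1990.5 and 2122. For LOC4343954, 3 members had differences of 3.72 to 4.48, while Os.49483.2.S1_x_at differed by 1.05 and Os.50778.1.S1_at, of another cluster, by -0.49. Probe sets of this gene thus fell into different classes. In LOC4342991 they did so as well: the member Os.34819.1.S1_at differed by 4.32, Os.33350.1.S1_at by 2.60 and Os.5530.2.S1_s_at by 0.44. This alike probe set, Os.5530.2.S1_s_at, was dim, between 84.5 and 167 on the 8 arrays. The alike probe sets of LOC4350847, LOC4344943 and LOC4325919 were also dim, between 70.6 and 225 on all 8 arrays, with differences of -0.25, 0.48 and -0.26. Levels that close to the reporters give little measure of the transcript. LOC4325919 also had the brighter Os.33341.2.S1_at, which read 893, 533, 1040.5 and 855 in indica and 1506, 976, 1083 and 1212 in japonica. Its difference was 0.54, and the backgrounds overlapped. LOC4350847 also had OsAffx.766.1.S1_at, between 72.7 and 247 on the 8 arrays, with a difference of 0.91 and no overlap.

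In 4 genes, described here after their values were seen, a further probe set showed the opposite pattern, high in indica and at or below the reporter level in japonica. For LOC4350802 the member Os.11161.1.S1_at read 13.6, 16.2, 60.6 and 52.5 in indica and 2705, 2748, 2783 and 2584 in japonica. The further probe set Os.39305.1.A1_at read 1552, 1358, 936 and 866 in indica and 11.2, 9.69, 3.94 and 9.78 in japonica, a difference of -5.57. A companion probe set of almost the same name, Os.39305.1.A1_x_at, read 1633, 1447, 1052 and 913 in indica, a difference of -5.76. The member was thus high in japonica, and these further probe sets were high in indica. LOC4333210 had the largest such difference, -6.59, for Os.9825.1.S1_at, which read 7261, 7129.8, 8564 and 8407 in indica and 66.7, 70.0, 61.2 and 63.6 in japonica. Its member Os.52294.1.S1_at read 11.9, 22.0, 38.2 and 34.2 in indica and 1088, 1659, 423 and 1047 in japonica.

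LOC4324010 read 1962, 2001, 1709 and 1684 in indica and 35.1, 31.8, 32.4 and 28.8 in japonica by Os.20714.1.S1_at, a difference of -5.27. Its member Os.8761.2.S1_at read 53.2, 50.8, 33.8 and 38.0 in indica and 1309.6, 1282, 1370.4 and 1284 in japonica, and another probe set, Os.8761.1.S1_s_at, differed by 0.57. LOC4329444 read 1280.0, 1249, 966 and 1074 in indica and 11.8, 12.1, 12.05 and 16.8 in japonica by Os.14042.1.S1_at, a difference of -5.30, and its member Os.9326.1.S1_at read 138, 139.6, 78.0 and 99.0 and 2030.0, 2213, 1619 and 2184. For all 4 genes, then, the member and its opposite put the backgrounds in opposite orders. Whether the opposite probe sets were designed on indica sequence, and whether the probe table assigns them to the right gene, was not tested.

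Probe sets were also grouped by the cluster number in their names, a grouping added after the data were seen, which gave a further tested probe set for 22 of the 112 members without a gene. The 200 members, with or without a gene, fell into 186 clusters, and 60 further tested probe sets were found in 40 of these clusters. Of these 60, 24 belong to a member's gene and were counted among the 56 above. By the same limits 26 were higher in japonica, 23 alike and 1 higher in indica. A cluster can hold related genes: of the probe sets in the cluster of the LOC4339029 member, 4 of other genes (LOC4349248, LOC4347135, LOC4336287 and LOC4339049) were alike, with differences of 0.28 to 0.46. Alike probe sets by this grouping can therefore measure another gene.

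Some member genes were neighbours. Their order was read from the reference table of assembly ASM3414082v1, which is not known to be the build behind the array. With at most 5 genes between them, 21 of the 82 member genes (25.6%) fell into 9 runs, and 10 (12.2%) lay directly next to another member gene. Of the 15524 other tested genes, 1.89% had a member gene within the same distance and 0.354% had one directly beside them. The longest run held LOC4328397, LOC4328398, LOC4328399 and LOC9266559, which follow each other directly. LOC4328397 read 31.3, 27.9, 25.7 and 35.9 in indica and 1980.0, 1963, 2079.7 and 1878 in japonica. LOC4328398 read 99.5, 91.4, 47.8 and 59.3 and 3525, 3569.9, 3456 and 3686, and LOC9266559 read 57.3, 64.1, 42.0 and 40.2 and 2863, 3029.6, 2606 and 2662. The differences of the 4 genes were 5.43, 5.35, 4.70 and 5.40.

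On one side of this run, LOC4328400 read 132, 97.8, 87.2 and 100.1 in indica and 544, 521, 657 and 641 in japonica, a difference of 2.34. On the other side, LOC4328394 differed by 1.15 and -0.25 in its 2 probe sets, LOC4328393 by -0.22 and LOC4328392 by 0.24. The large difference thus covered 4 genes, was smaller in the next gene on one side, and was under 0.5 in size at LOC4328393 and LOC4328392 on the other side.

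A further run held LOC4339508, LOC4339507 and LOC4339505. The gene between them, LOC4339506, is no member but read 86.9, 76.1, 57.3 and 52.6 in indica and 554, 615, 594 and 579 in japonica, and its gap of 2.47 lay under the limit. Beyond the run, LOC4339509 differed by 0.24 and LOC4339510 by 2.09. The next run joined LOC4344941, with the largest gap of any gene, to LOC4344943. On the next place with a probe set, LOC4344940 read 1001, 481, 990.0 and 1645 in indica and 5632, 6422, 5008 and 4827 in japonica, clear signal in both backgrounds with a difference of 2.51. In another run of 2 members, LOC4349256, between LOC4349255 and LOC4349257, was higher in indica, with a difference of -0.77. In the last of the 5 runs named, LOC4347149 and LOC4347150 lay between LOC4347147, which differed by 2.82, and LOC4347151, which differed by 2.16. Runs were counted from members, and further probe sets of run genes varied. Those of LOC4347149 differed by 1.60, 0.56 and 0.36, and Os.5374.1.S1_s_at read 526, 599, 400 and 420 in indica. LOC4324010 and LOC4329444, in runs not named here, had the opposite probe sets given above (-5.27 and -5.30). In other such runs, LOC9269842 and LOC4341379 had further differences of 2.01 and 1.63. Whether neighbouring genes were absent from the indica lines, differed in sequence or were less active was not tested.

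The comparisons inside a background were not themselves used to choose the members, but the rule took the lowest japonica and the highest indica array and so favours members with little spread inside a background. Counts of members inside a background are therefore descriptions that draw in part on values the rule used. They were taken from limma fitted over all 34317 probe sets, with Benjamini-Hochberg adjustment and an adjusted p of 0.05 as the threshold. Any line-by-temperature difference inside a background enters the residual of this fit, and so the standard errors and p-values. Between Os02g12290iL1 and ZH11, 0 of the 200 members passed (10 of all probe sets, 0.0291%). At an unadjusted p under 0.05 there were 6 members (3%), beside 3.33% of all probe sets. The smallest adjusted p of a member was 0.874, and the median difference was -0.03, beside 0.01 over all. The largest difference was that of Os.52294.1.S1_at (LOC4333210), which read 1088, 1659, 423 and 1047 on the japonica arrays, a difference of 0.94 ± 0.22 (SE) with a limma adjusted p of 1.00. It was higher in the RNAi line at both temperatures.

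Os.27403.1.A1_at read 1198, 798, 842 and 571 and was lower in the RNAi line at both temperatures, with a difference of -0.56 ± 0.10 (SE). For Os.54843.1.S1_at (LOC4333734) the difference was -0.53 ± 0.15 (SE), from intensities of 9978, 5905, 10364 and 8384. Os.55392.1.S1_at (LOC4331157) differed by 0.67 ± 0.29 (SE) and Os.37243.2.S1_x_at by 0.55 ± 0.29 (SE), both with their highest value on the RNAi array at high temperature. Os.37243.2.S1_x_at read 408, 395, 344 and 783, and its difference was -0.0453 without the ZH11 array and -0.0462 without the Os02g12290iL1 array at high temperature. None of these 5 passed the adjusted threshold.

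Between high and low temperature in japonica, 0 members passed (0 of all probe sets, 0%), and 29 members (14.5%) fell under 0.05 before adjustment, beside 7.67% of all. The smallest adjusted p of a member was 0.294. The difference was positive for 146 members and negative for 54, with a median of 0.10, where 48.4% of all probe sets were positive with a median of -0.01. Os.55392.1.S1_at (LOC4331157) read 339, 362, 526 and 1272, a difference of 1.19 ± 0.29 (SE), and was highest in the RNAi line at high temperature. Os.9454.1.S1_at read 1259, 1285, 662 and 565, a difference of -1.04 ± 0.11 (SE), and was lower at high temperature in both lines. Os.25910.1.S1_at read 336, 386, 744 and 726, a difference of 1.00 ± 0.12 (SE), and was higher at high temperature in both lines. Os.52294.1.S1_at and Os.9757.1.S1_at had differences of -0.99 ± 0.22 and 0.64 ± 0.10 (SE).

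In indica, 0 members passed between AnS-1 and AnN (0 of all probe sets, 0%), 10 members (5%) had an unadjusted p under 0.05, beside 9.73% of all, and the smallest limma adjusted p was 0.492. Between high and low temperature in indica, 84 members passed, 37 higher and 47 lower at high temperature, which is 42% of the members beside 46% of all probe sets. This share is near that of all probe sets, and here temperature and array set cannot be told apart. Leaving out any single japonica array, which lowers the residual degrees of freedom, brought the count to between 50 and 52. As most members were at reporter level in indica, these are mainly changes of low values.

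Among these 84, Os.51181.1.S1_at had the largest rise and Os.53586.1.S1_at the largest fall, both named after their values were seen. Os.51181.1.S1_at read 2.89, 9.45, 77.4 and 78.3 in indica, a change of 2.10 ± 0.16 (SE; limma adjusted p = 0.0017), and was below the reporter level on every indica array. Os.53586.1.S1_at (LOC4347911) read 106, 91.7, 17.9 and 18.2, a change of -1.75 ± 0.12 (SE; limma adjusted p = 0.0013), and likewise stayed below that level. Os.5308.1.S1_at (LOC4339505) read 31.0, 23.6, 137 and 177, a change of 1.99 ± 0.17 (SE; limma adjusted p = 0.0021), and rose above the reporter level at high temperature, while its japonica intensities were 2787, 2743, 2862 and 2708.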

How the data were processed

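Total RNA from young panicles was labelled as biotinylated cRNA and hybridised to Affymetrix rice arrays, 8 in all, per the labels' protocols. The deposited values are linear intensities. The submitters' processing notes name RMA and Affymetrix Expression Console, whose versions are not given in the sources used here. As RMA output is commonly log2, the linear unit was read off the size of the values. All deposited value columns were used. The number of arrays limits the precision, and intervals for counting error do not apply to intensities.

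The columns were quantile normalized, 64 reporter control probe sets were left out, log2(intensity + 16) was taken and the upper 60% by mean were kept. Averages over 4 arrays of a background mix lines and temperatures. Tests inside a background used limma 3.58.1 in R 4.3.3, with 4 line means and a temperature term for each background, 2 residual degrees of freedom and p-values adjusted over all 34317 probe sets. Nothing says that the arrays came from separate plants or cultures, and no line and temperature had a second array. The p-values therefore rest on a residual that mixes line-by-temperature differences inside a background with array-to-array spread, which may be technical. Descriptions used Python 3.11.15 with pandas 2.3.3 and numpy 2.4.6. Genes come from the platform's probe table, with symbols updated through RefSeq's table of assembly ASM3414082v1, which also gave the gene order for neighbours, and no coordinates are printed.

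The members and gene lists were chosen with earlier results of these data known. Genes were named by rule: the 12 largest gaps, those with informative symbols, up to 8 genes for each way the further probe sets behaved, the 5 largest changes where fewer than 5 members passed a test, 3 on each side of the limit, and up to 5 runs. The rule also names each member that passed a test, but of the 84 for temperature in indica only a few are named. Alternatives were other filters, pseudocounts and normalizations, leaving out arrays, other limits, and other groupings of probe sets.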

Additional observations from a re-analysis of the deposited data

Results flagged for a closer look

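By the limma interaction term (adjusted p under 0.05 over all probe sets), temperature change differed between japonica and indica for 50 of 200 members. Of these, 27 were more positive and 23 more negative in japonica. The members' share is near that of all probe sets, of which 22.7% passed. In indica, temperature and array set cannot be told apart, because the low and high arrays lay on different deposited scales, and most members were at reporter level there. Among the members named here, japonica minus indica was more negative for Os.51181.1.S1_at (-2.05), Os.5308.1.S1_at (-1.98), Os.52294.1.S1_at (-1.67), Os.11161.1.S1_at (-1.25), Os.9454.1.S1_at (-0.85) and Os.54084.1.S1_at (-0.70). It was more positive for Os.55392.1.S1_at (1.72), Os.53586.1.S1_at (1.60), Os.17052.1.S1_s_at (1.39), Os.3777.1.S1_at (1.075), Os.53740.1.S1_s_at (1.03), Os.25910.1.S1_at (0.85), Os.18580.2.S1_at (0.78), Os.18676.1.S1_at (0.75), Os.1151.2.S2_a_at (0.70) and Os.7382.1.S1_at (0.67). For 4 of these named members the difference with temperature was larger in size in japonica than in indica. It was -1.04 beside -0.19 for Os.9454.1.S1_at, 1.00 beside 0.15 for Os.25910.1.S1_at, -0.99 beside 0.68 for Os.52294.1.S1_at and 1.19 beside -0.53 for Os.55392.1.S1_at.

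Among the 64 reporter probe sets, which match foreign genes and are no members, 2 stood out in the RNAi line and were picked after their values were seen. The first read 2281 at low and 2836 at high temperature in Os02g12290iL1, beside 54.5 and 54.7 in ZH11. The second read 3075 and 3222, beside 30.3 and 18.5. No other reporter exceeded 358 on any array.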

How the results depend on the processing

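Between 147 and 195 of the 200 members were chosen again with other filters, pseudocounts or normalizations. Leaving out 1 array in turn gave 171 to 193, using the difference of means 160, using ZH11 and AnN alone 170, and leaving out both indica arrays at low temperature, an alternative chosen after seeing the data, 144. The gaps of 47 named probe sets, recomputed under 15 settings, moved by less than the spread between arrays in 609 of 705 cases and by more in 96, with a lowest value of 1.79; their positive sign is nearly fixed by the choice of the largest gaps. The count at or under the reporter level in indica was 179 with the reporters' 95th percentile, and the 9 runs stayed at 9 with protein-coding genes only and without both low-temperature indica arrays, alternatives also chosen after seeing the data.

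The 17 further probe sets higher in japonica became 26 with no filter, 11 with the upper 40%, 26 with limits of 0.58 and 0.25, 11 without names ending in _s_at or _x_at, and 26 by cluster number. The 15 alike became 9 with the upper 40%, 7 with the narrower limits and 23 by cluster number. The limits of 0.58 and 0.25 were applied to the same 56 probe sets, so those counts depend on where the limits are set. Under the other settings, fewer or more probe sets enter by construction.

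The 84 members called for temperature in indica became 52 with a pseudocount of 64 and 159 on deposited values with no further normalization, which keep the different scales of the indica arrays, and 50 to 71 with 1 array left out. Between AnS-1 and AnN, the count ranged from 0 to 4 with 1 array left out, with 4 without the high-temperature AnN or AnS-1 array. The counts of 0 for the RNAi line and for temperature in japonica stayed at 0 under all alternatives run. The RNAi difference of Os.37243.2.S1_x_at turned to -0.0453 without ZH11 replicate 2 and -0.0462 without Os02g12290iL1 replicate 2 (the high-temperature arrays), and was up to 1.159 with another array left out. No paired analysis was possible because the replicate numbers mark the temperatures, which the fit already holds as terms. Members near the reporter level in indica have only a bound there.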
